A study of Mus musculus with 3 samples.

Results

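The integrin and laminin genes were examined as possible targets of the forkhead transcription factor Foxf2 in the embryonic mouse tongue. Members were chosen by name, as 36 genes that encode integrin subunits (26 genes) or laminin chains (10 genes). Earlier results of these data were known when the members were chosen. A Foxf2 peak was assigned to a member when the protein-coding transcription start site (TSS) nearest to its midpoint belonged to that gene. Of 25704 peaks on placed chromosomes, 93 were assigned to these genes, out of 21938 protein-coding genes in all. Each peak is a region of chromatin recovered with the tagged protein, and a peak near a gene does not show that Foxf2 regulates that gene.

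The chromatin came from tongues of Foxf2FLAG/FLAG embryos at E12.5, in which both copies of the endogenous Foxf2 gene carry a 3xFLAG tag made by CRISPR/Cas9 editing. The labels list 2 libraries precipitated with anti-FLAG antibody and 1 input library, the control for peak calling, all from the same genotype and stage, and give 75 tongues, per library or in all. The whole tongue was used, so epithelium, muscle precursors, vessels and mesenchyme were mixed. A library from untagged embryos was not analysed here. The deposited values were 1 list of peaks with a position, a score and a focus ratio, and no value per library, so sequencing depth was unknown, agreement between the ChIP libraries could not be examined, and the values below have no replicate error. They are counts and shares with no test. Intervals are 95% intervals by the exact Clopper-Pearson method, and they cover counting error alone.

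Integrins are cell surface receptors made of an alpha and a beta subunit, which tie the actin cytoskeleton to proteins outside the cell. Most bind extracellular matrix, such as collagen, laminin, or the RGD tripeptide in fibronectin and vitronectin, whereas a set confined mainly to white blood cells binds proteins on other cells. Laminins are secreted trimers of an alpha, a beta and a gamma chain that polymerise into the basement membrane beneath epithelia and around muscle fibres, nerves and vessels. In the tongue these proteins lie where neural crest mesenchyme meets the oral epithelium and the myoblasts that migrate into it.

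By nearest protein-coding TSS, most matrix-binding integrin and laminin genes had a Foxf2 peak, and the leukocyte integrin genes had none. Of 19 matrix-binding integrin genes, 15 had at least 1 peak (78.9%, interval 54.4 to 93.9), with 67 peaks in all. Of 10 laminin genes, 8 had a peak (80%, interval 44.4 to 97.5), with 26 peaks. The laminin count fell to 4 of 10 when the TSSs of noncoding and other annotated genes competed for peaks, while that of the matrix-binding integrins was 13 of 19. Within 10 kb of the TSS the counts were 5 of 10 laminin and 8 of 19 matrix-binding integrin genes, so neither was most of its group. These were 13 of the 23 members with a peak, and the rest of the 23 had only more distant peaks. Shares of all protein-coding genes under either of these rules are not given here. Of 7 leukocyte integrin genes, 0 had a peak, for which the interval reaches 41%. Over all protein-coding genes the share with a peak was 37.3%, and over the 36 members it was 63.9% (23 genes, interval 46.2 to 79.2). The members had longer territories, meaning the sequence nearest to their TSSs (median 65.6 kb, against 47.0 kb for all protein-coding genes). Genes in the same deciles by territory had a peak in a mean of 46.3% of cases, which is just inside the lower end of that interval. The median member had 2 peaks, against 0 for the median protein-coding gene, with no allowance for territory.

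**Figure D1:**
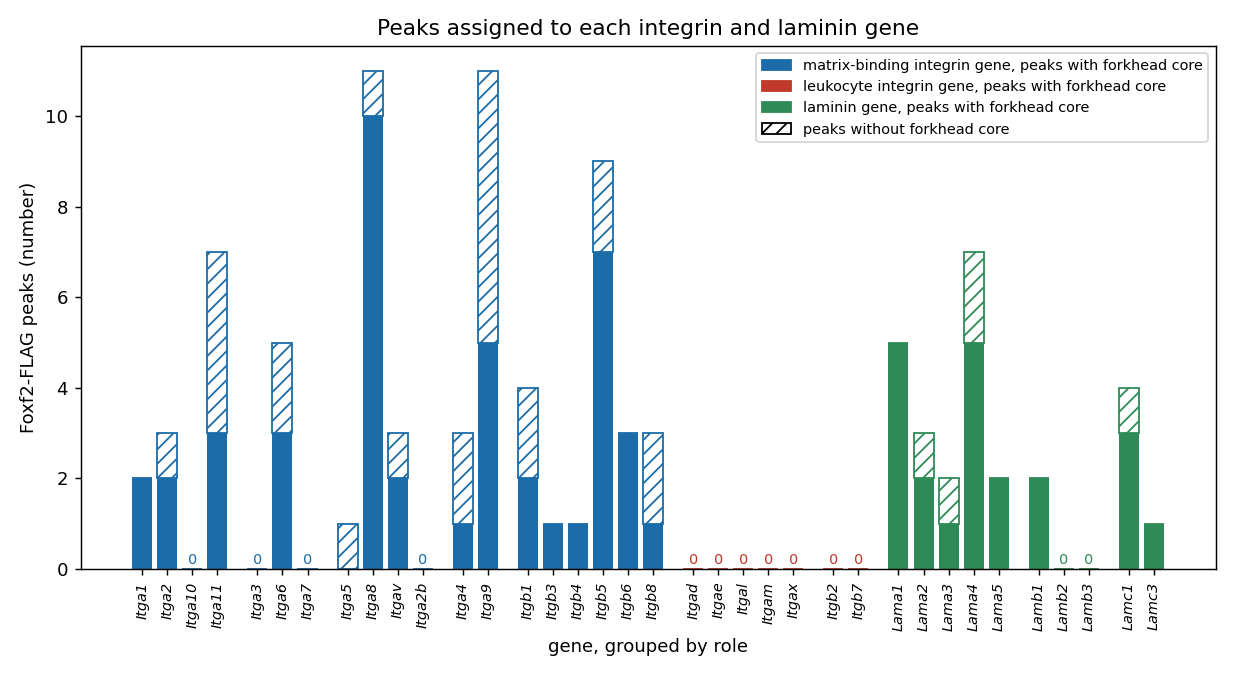
The number of Foxf2-FLAG peaks (vertical axis) assigned to each of the 36 genes (horizontal axis, grouped by role), with filled bars for peaks that hold a forkhead core and hatched bars for those that do not. Itga8 and Itga9 had 11 peaks each, and each of the 7 leukocyte integrin genes had 0.

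The sequences of the 8 highest-scored member peaks are shown, which leaves out peaks inside a member gene but nearer to another gene's TSS. They are read on the plus strand of mm10, with capitals marking each forkhead core, the sequence that forkhead proteins bind, on either strand. A core was taken as GTAAACA or ATAAACA, or as GTAAATA or ATAAATA, and appears as the reverse complement of these letters where it lies on the minus strand.

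Lamb1 chr12:31275291-31275503, intron: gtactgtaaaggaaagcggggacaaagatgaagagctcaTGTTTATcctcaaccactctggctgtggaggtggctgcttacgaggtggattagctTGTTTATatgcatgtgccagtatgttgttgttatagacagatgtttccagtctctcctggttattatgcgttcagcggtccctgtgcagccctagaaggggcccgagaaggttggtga
Itga11 chr9:62708697-62708909, intron, no core: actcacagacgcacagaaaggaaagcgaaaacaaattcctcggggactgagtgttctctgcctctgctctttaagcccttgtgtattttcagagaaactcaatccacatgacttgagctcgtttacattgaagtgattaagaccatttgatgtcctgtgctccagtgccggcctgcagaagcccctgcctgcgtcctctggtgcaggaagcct
Lama4 chr10:38984481-38984693, intron: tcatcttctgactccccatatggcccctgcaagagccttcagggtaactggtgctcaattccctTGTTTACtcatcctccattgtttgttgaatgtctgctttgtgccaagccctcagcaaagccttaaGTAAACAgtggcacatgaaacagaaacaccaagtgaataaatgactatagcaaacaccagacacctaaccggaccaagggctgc
Lamc3 chr2:31892834-31893046, intron: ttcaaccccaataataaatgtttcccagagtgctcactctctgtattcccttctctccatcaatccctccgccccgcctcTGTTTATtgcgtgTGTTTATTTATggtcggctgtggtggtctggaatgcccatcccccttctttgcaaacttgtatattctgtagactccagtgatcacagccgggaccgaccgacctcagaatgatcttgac
Itga11 chr9:62663442-62663654, upstream: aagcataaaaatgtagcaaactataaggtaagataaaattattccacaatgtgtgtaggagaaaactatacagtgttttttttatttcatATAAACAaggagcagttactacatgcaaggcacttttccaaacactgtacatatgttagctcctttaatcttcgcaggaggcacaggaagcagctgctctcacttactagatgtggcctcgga
Itga8 chr2:12153629-12153841, intron: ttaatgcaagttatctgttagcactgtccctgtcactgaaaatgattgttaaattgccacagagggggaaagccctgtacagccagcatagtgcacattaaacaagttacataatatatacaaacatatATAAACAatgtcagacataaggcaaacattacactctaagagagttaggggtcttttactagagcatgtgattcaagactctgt
Itga1 chr13:115346685-115346897, upstream: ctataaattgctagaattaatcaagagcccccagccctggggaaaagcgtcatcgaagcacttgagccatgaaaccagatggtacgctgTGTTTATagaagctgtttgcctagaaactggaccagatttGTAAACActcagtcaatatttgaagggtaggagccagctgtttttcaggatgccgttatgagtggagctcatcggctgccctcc
Itga8 chr2:12306439-12306651, upstream: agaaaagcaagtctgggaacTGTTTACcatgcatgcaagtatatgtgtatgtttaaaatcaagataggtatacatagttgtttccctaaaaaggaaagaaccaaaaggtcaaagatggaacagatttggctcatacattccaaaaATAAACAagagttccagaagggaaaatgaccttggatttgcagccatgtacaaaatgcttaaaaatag

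The 8 sequences held from 0 to 3 cores each. Lamb1, which encodes a laminin beta chain used in most embryonic basement membranes, had the member peak with the highest score, 72, which ranked 499 in the whole list. It lay in intron 4, 10.1 kb from the TSS, and held 2 cores. The Lamc3 peak (score 55.1) held 3 cores, of which a pair overlap in the run TGTTTATTTAT. The Itga11 peak in an intron, the second highest at 61.8, held no core in any of the 4 forms. The scores are the authors' own, from their peak caller, on a scale that the sources used here do not state, and serve only to rank and describe peaks within this list. Over the 93 peaks the median score was 15.7, against 16.2 in the whole list, and 9 of the 93 (9.68%) lay in the highest-scored 10% of the list.

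Among the collagen receptors, Itga11 had the most peaks and Itga10 had 0. Itga11 encodes the collagen receptor subunit of fibroblasts and other mesenchymal cells (chr9:62677826-62783982, plus strand) and had 7 peaks, or 5.09 per 100 kb of its territory, where the territory is the sequence nearer to a TSS of the gene than to that of any other protein-coding gene. Over all protein-coding genes the peaks numbered 0.943 per 100 kb. The highest-scored Itga11 peaks were at 61.8 in intron 2, 31.0 kb downstream of the TSS, at 53.9 14.3 kb upstream, and at 40.2 66.0 kb upstream. Each of its 3 upstream peaks held a core, and none of its 4 intronic peaks did. Itga2, a collagen receptor subunit of epithelia and platelets, had 3 peaks with scores from 17.3 to 19.1, of which 1 lay inside the neighbouring Itga1 gene. Itga1, the collagen receptor subunit of smooth muscle and fibroblasts, had 2 peaks, both far upstream, at 245 kb (score 44.4) and 578 kb (14.2). With a territory of 604 kb it had 0.331 peaks per 100 kb, below the mean of all genes. No peak lay within 100 kb of the Itga1 TSS.

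Of the laminin receptor subunits, Itga6 had peaks, and Itga3 and Itga7 had 0. The share of 1 in 3 (33.3%) was close to the mean of 36.9% among genes in the same deciles by territory, and the territories of Itga7 (18.5 kb) and Itga3 (43.2 kb) were shorter than that of Itga6 (163 kb). Itga6, which pairs with Itgb4 in the hemidesmosomes of basal epithelial cells, had 5 peaks with scores of 24.5, 18.5, 18.1, 15.5 and 14.8. All 5 lay upstream, between 16.3 and 106 kb from the TSS, and 4 of them fell between 75.9 and 106 kb. The highest held the core GTAAACA. A further peak inside the Itga6 gene (15.9) was nearer to the TSS of Pdk1 and was not counted. Itga7, the laminin receptor subunit of skeletal muscle, lay 237 kb from the nearest peak of the list, and the Itga3 TSS lay 28.4 kb from one. Itgb4 itself had 1 peak, 4.25 kb upstream (score 20.2), which also held GTAAACA.

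Receptors of the RGD class included Itga8, which shared the highest count among the members with Itga9. Itga8, a fibronectin and nephronectin receptor subunit of embryonic mesenchyme and smooth muscle (chr2:12106632-12301922, minus strand), had 11 peaks, and 332 of the 21938 genes had more. The 6 highest scores were 48.5, 42.6, 22.1, 21.9, 18.2 and 15, and the other 5 ran from 10.9 to 12.6. The highest lay in intron 25 of 29, 148 kb downstream of the TSS, and the next 4.62 kb upstream, inside the antisense transcript E030013I19Rik. Of the 11, 10 held a core, and 4 held GTAAACA. Its density was 3.43 per 100 kb, and genes in its decile by territory, the one with the longest territories, had a median of 4 peaks. Itgav, the alpha subunit shared by many RGD receptors, had 3 peaks (21.8, 19.3 and 11.3), all within 16.2 kb of its TSS. Itga5, the alpha subunit of the main fibronectin receptor, had 1 peak of 12.1. Itga2b, the platelet subunit, had 0.

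The alpha subunits of the related pair Itga4 and Itga9 had 3 and 11 peaks. Itga9, a receptor subunit for tenascin-C and other matrix proteins (chr9:118606690-118901003, plus strand), had peaks with scores from 10.5 to 35.1 and a median of 16.4, or 4.19 per 100 kb. Of the 11, 9 lay inside the gene, on either side of an internal start 105 kb from its 5′ end, and 5 held a core. The highest, at 35.1 in intron 11, held none. The strongest peak inside the Itga9 gene, at 69.8 and 256 kb from its 5′ end, was nearer to the TSS of Ctdspl and is not among the 11. Itga4, which binds fibronectin and the cell surface protein Vcam1 and is also found on leukocytes, had peaks of 34.7, 12.8 and 10.6, each at least 43.8 kb from the TSS. Its territory of 280 kb had 1.07 peaks per 100 kb, close to the mean of all genes.

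Each of the 6 beta subunit genes of matrix-binding integrins had a peak (interval 54.1 to 100), against a mean of 55.8% in the same deciles by territory. Itgb5, which pairs with Itgav as a vitronectin receptor (chr16:33829665-33949338, plus strand), had 9 peaks in a territory of 117 kb, and its 7.66 per 100 kb was the highest density among the members. All 9 lay inside the gene, with scores of 29.5, 29, 25.8, 20.8, 19, 15.7, 13.8, 13.6 and 13. The highest, at 29.5, lay in intron 5, 0.986 kb downstream of an internal start, and the next lay 0.54 kb downstream of the first start. A group of 4 peaks in intron 5 spanned both sides of that internal start. The 2 peaks near the 3′ end of the gene, with scores of 48.1 and 17.9, were nearer to Umps and were not counted. The core nearest to the centre of each of the 7 Itgb5 peaks that held one is printed below with 8 bases on each side, to show how the cores vary within 1 gene, in the direction that reads as the core.

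Itgb5 chr16:33830209-33830215, plus strand: cttcctgtGTAAACAgtgtgcgt
Itgb5 chr16:33833183-33833189, minus strand: cccagaagGTAAACAgtagccta
Itgb5 chr16:33870720-33870726, plus strand: ggttttgtATAAATAtaaggatc
Itgb5 chr16:33885297-33885303, minus strand: gctgatgcATAAACAcagaacag
Itgb5 chr16:33886880-33886886, minus strand: tagttagaGTAAACAgagttgga
Itgb5 chr16:33889276-33889282, minus strand: ctgtaacaATAAACAtggtctcc
Itgb5 chr16:33918053-33918059, plus strand: ctcactatATAAACAgacaaatt

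GTAAACA made up 3 of the 7 sites, ATAAACA made up 3 and ATAAATA was found at 1. Itgb1, the partner of most matrix-binding alpha subunits, had 4 peaks (20.9, 18.8, 10.1 and 10.1), including 1 at 0.418 kb downstream of the TSS, in intron 1, with 72.5% GC and no core. Its 1.82 per 100 kb was below that of Itgb5. Itgb6 and Itgb8, whose products pair with Itgav and release latent TGF-beta, had 3 peaks each. The Itgb6 peaks, led by scores of 32.3 and 24.3, each held a core. The Itgb8 scores of 12, 11.4 and 10.9 were in the lower part of the list, and 1 of the 3 held a core. Itgb3, the partner of Itga2b and Itgav, had 1 peak of 18 in its intron 2.

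**Figure D2:**
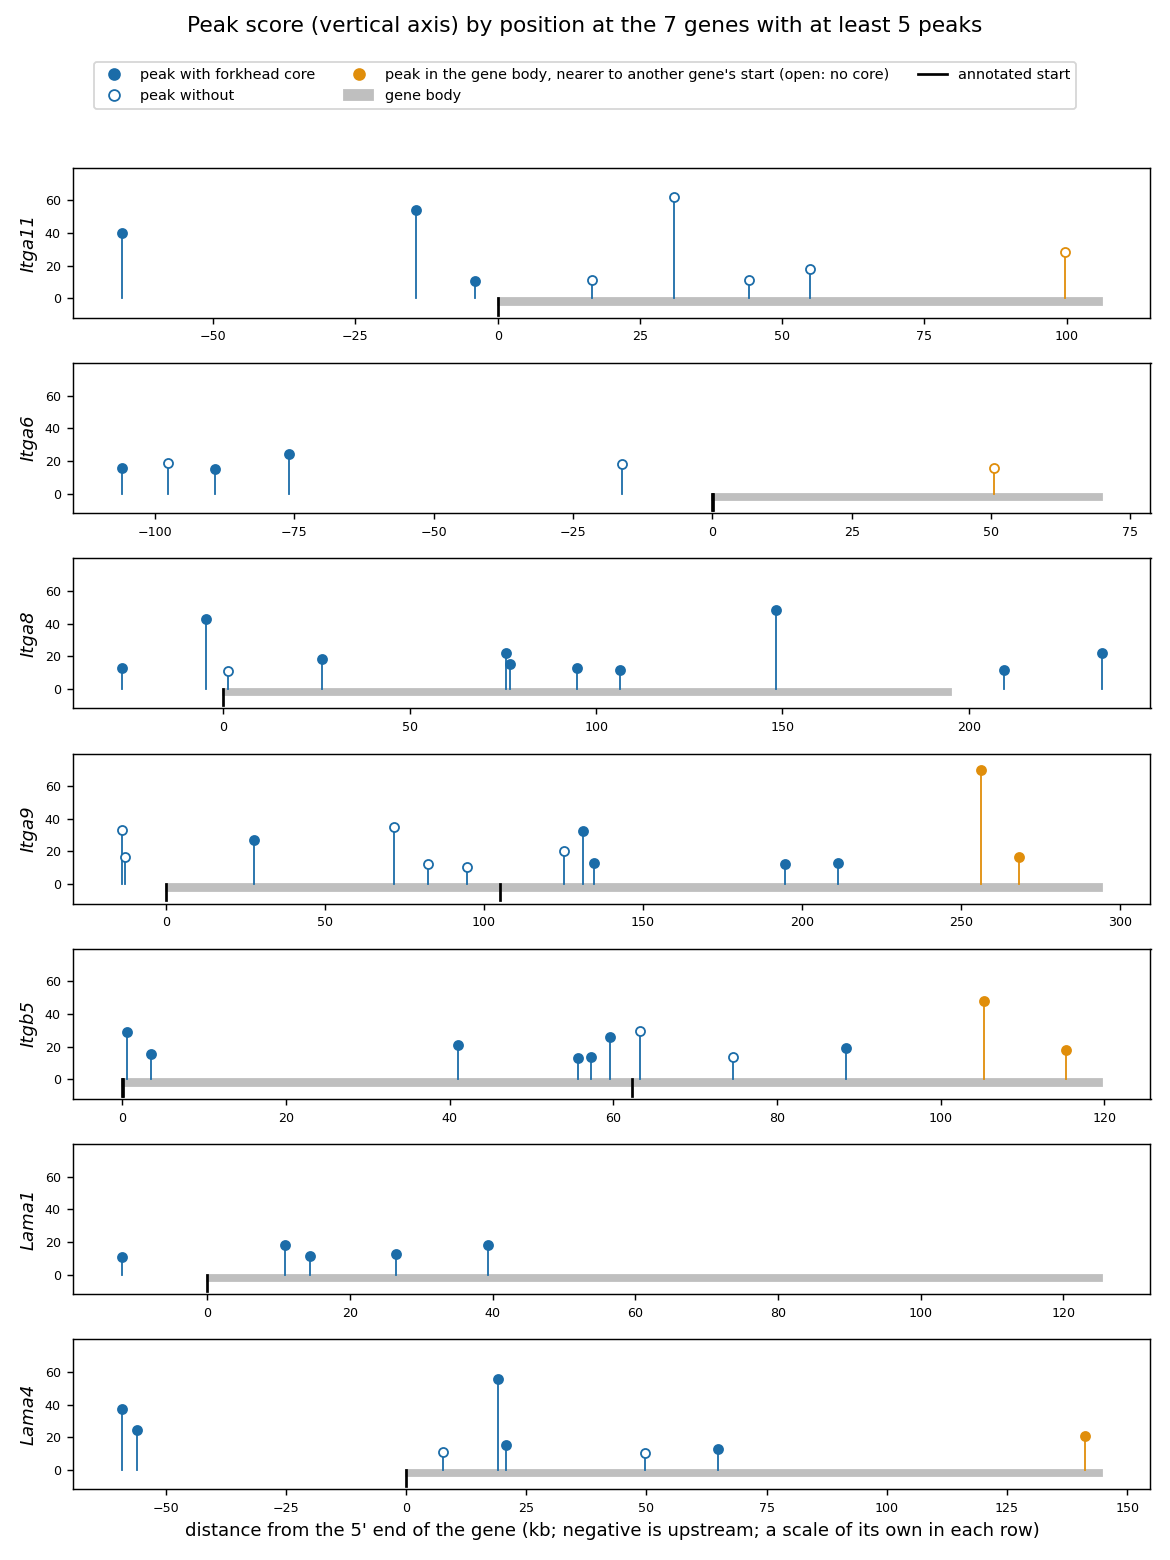
Peaks at the 7 genes with at least 5 of them, by distance from the 5′ end of the gene (horizontal axis, kb, scaled separately in each row) and by the authors' peak score (vertical axis). Blue points are assigned peaks and orange points are peaks inside the gene that lie nearer to another gene's start, filled where a forkhead core is present, grey bars are gene bodies and black ticks are annotated starts. The 5 Itga6 peaks all lie upstream, and the 9 Itgb5 peaks all lie inside the gene.

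The leukocyte integrin genes were without peaks both by nearest TSS and by gene body. They encode the alpha subunits Itgal, Itgam, Itgax and Itgad, which pair with Itgb2 and mediate adhesion of leukocytes to vessel walls and particles, and Itgae, which pairs with Itgb7 and holds lymphocytes to epithelial E-cadherin. None of the 7 gene bodies held a peak. The nearest peak of the list lay 12.9 kb from the Itgb7 TSS (assigned to Rarg), 22.2 kb from that of Itgal, 29.2 kb from that of Itgb2 and 64.0 kb from that of Itgad. For Itgax, Itgam and Itgae it lay 108, 167 and 223 kb away. Itgam, Itgax and Itgad stand side by side on chromosome 7, so their neighbourhoods are not independent.

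The leukocyte integrin genes also had less room for peaks. Their territories ran from 20.9 to 62.6 kb (median 45.3), against 17.1 to 604 kb (median 136) for the matrix-binding integrins and 14.5 to 651 kb (median 94.0) for the laminins. Protein-coding genes in the same deciles by territory had a peak in a mean of 25.7% of cases for the leukocyte list, 52.4% for the matrix-binding list and 49.3% for the laminins. In 298 kb of territory the leukocyte genes had 0 peaks, and a count of 0 allows up to 1.01 peaks per 100 kb. That limit lies above the mean of all genes (0.943) and below the 2.26 of the matrix-binding integrins, whose territories were longer. Among genes in the same 4 deciles of territory, a restriction chosen after the values were seen, 0 of 7 leukocyte genes, 3 of 5 matrix-binding genes and 3 of 3 laminin genes had a peak, against 23.7% of all genes in those deciles. The peaks there numbered 1.27 per 100 kb for the matrix-binding genes, from 3 peaks, and 0.841 for all genes, so the limit of 1.01 lies above the second and only a little below the first. The 3 matrix-binding genes were Itga5, Itgb3 and Itgb4, with 1 peak each, and the laminins were Lama5, Lamb1 and Lamc3. The number of leukocytes in the tongues is not given by the labels, and its part in the absence of peaks was not tested.

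**Figure D3:**
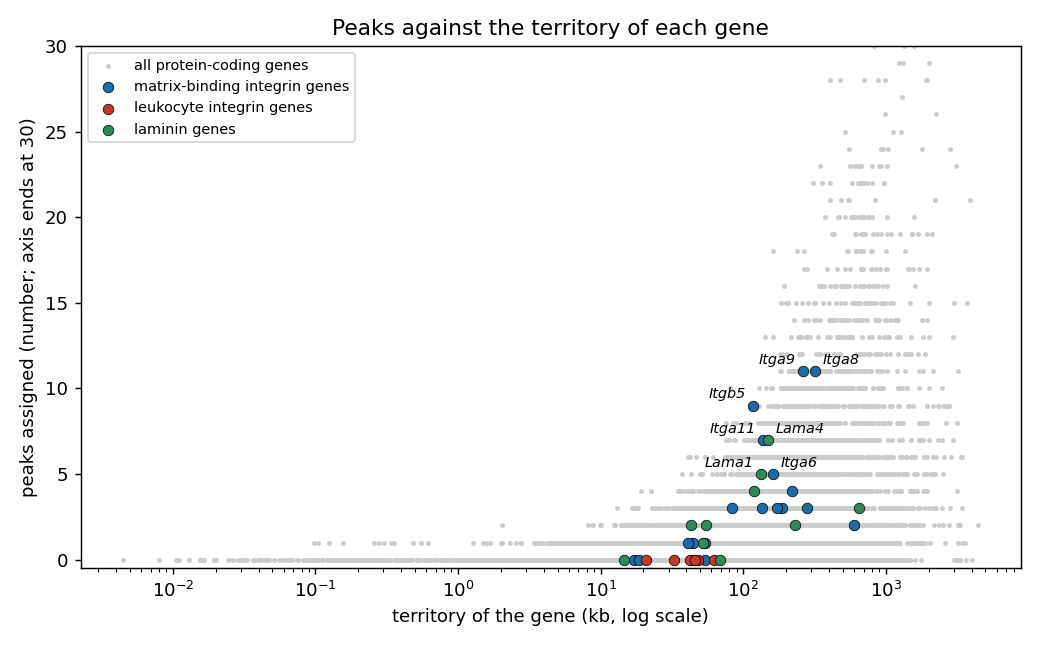
Number of peaks assigned to a gene (vertical axis, which ends at 30 and leaves 13 genes beyond it) against the territory of the gene (horizontal axis, kb, log scale), with grey points for all protein-coding genes and coloured points for the members. The 7 leukocyte integrin genes lie between 20.9 and 62.6 kb at 0 peaks, and Itgb5 has 9 peaks in 117 kb.

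Of the laminin genes, all 5 alpha chain genes had peaks (interval 47.8 to 100), against a mean of 61.8% of genes in the same deciles by territory. For the beta chains the share was 1 of 3 (33.3%) against 30.8%, and for the gamma chains 2 of 2 against 45.8%, so these few genes do not show a difference between chains. Lama4, the alpha chain of vessel walls and of mesenchymal basement membranes (chr10:38965515-39110188, plus strand), had 7 peaks or 4.66 per 100 kb. The 4 highest scores were 55.7, 37.2, 24.3 and 15.4, and the other 3 were at least 10.1. The highest lay in intron 1, 19.1 kb downstream of the TSS, and held 2 copies of GTAAACA. A pair lay 59.0 and 56.0 kb upstream, 3 cores in the first and 1 in the second. Lama1, the alpha chain of the early embryonic basement membrane, had 5 peaks (18.2, 17.9, 12.9, 11.6 and 10.6), each with a core. Of these, 4 lay in its first 3 introns. Lama2, the alpha chain around muscle fibres, had 3 peaks (30.7, 11 and 10.9) in a territory of 651 kb, and 0.461 per 100 kb was below the mean of all genes. A further 5 peaks inside the Lama2 gene were nearer to the TSS of Arhgap18. Lama5, the alpha chain of many mature epithelial basement membranes, had 2 peaks (15.3 and 13.8), both with GTAAACA. Lama3, an epithelial alpha chain, had 2 peaks of 12.1 and 11.5.

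Among the beta chains Lamb1 had both of the peaks found, and Lamb2 and Lamb3 had 0. The second Lamb1 peak, at 22.1, lay 9.44 kb upstream of the TSS, so the pair stood at almost equal distances on its 2 sides, and each peak held 2 cores. Lamb2, the beta chain of neuromuscular junctions and kidney, lay 11.0 kb from the nearest peak of the list, in a territory of 14.5 kb. Lamb3, the beta chain of epidermal anchoring laminin, lay 18.4 kb from one. Of the gamma chains, Lamc1, which is part of most laminins, had 4 peaks (19.9, and 3 of up to 13), all in its intron 1, between 14.5 and 67.1 kb downstream of the TSS, and 3 held a core. Lamc3 had the single peak of 55.1 described above, 5.60 kb from the TSS in intron 1.

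Few member peaks were in promoters, here the 1000 bp before a TSS and the 100 bp after it, and the same held for the whole list. Of the 93 peaks, 4 (4.30%) fell in the promoter of any annotated transcript, against 8.52% of all peaks. No interval is given for this count of 4, and no difference from the whole list is drawn from it. The Itga5 peak (12.1, 103 bp upstream) and an Itgav peak (11.3, 368 bp upstream) lay in the promoters of the genes themselves, so that 2 of 36 members (5.56%) had a peak in their own promoter, against 6.68% of protein-coding genes. The Itga8 peak of 10.9 and the Lamc3 peak of 55.1 lay in promoters of the antisense noncoding transcripts E030013I19Rik and Gm13441. The first was 1.19 kb downstream of the Itga8 TSS. The sequences of the Itga5, Itgav and Itga8 peaks are shown for contrast with the strong distal peaks, on the plus strand, the Itga5 peak without its few transcribed bases.

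Itga5 chr15:103366764-103366972, no core: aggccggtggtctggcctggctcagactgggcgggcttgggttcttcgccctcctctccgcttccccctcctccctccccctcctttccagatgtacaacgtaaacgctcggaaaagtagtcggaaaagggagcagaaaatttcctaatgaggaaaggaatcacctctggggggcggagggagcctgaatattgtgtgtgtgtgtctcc
Itgav chr2:83723923-83724135, no core: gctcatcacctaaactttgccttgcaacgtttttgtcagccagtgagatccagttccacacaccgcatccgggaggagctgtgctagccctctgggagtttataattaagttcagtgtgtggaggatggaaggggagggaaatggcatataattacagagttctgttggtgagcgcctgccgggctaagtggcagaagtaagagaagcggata
Itga8 chr2:12300627-12300839, no core: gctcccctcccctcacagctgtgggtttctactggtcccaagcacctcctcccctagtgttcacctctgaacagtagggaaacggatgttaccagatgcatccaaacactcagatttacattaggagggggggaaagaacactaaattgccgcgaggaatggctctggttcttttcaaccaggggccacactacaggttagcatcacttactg

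None of these 3 sequences held a core, and their scores of 10.9 to 12.1 were in the lower part of the list. Itga5 and Itgav, the subunits of fibronectin and vitronectin receptors, thus differed from Lamc3, whose promoter-class peak was 1 of the 4 highest-scored. The Itgb1 peak 0.418 kb, the Itgb5 peak 0.54 kb and the Itgb8 peak 0.632 kb downstream of their starts lay past the promoter limit.

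Most member peaks lay inside the member gene itself. Of 93, 56 (60.2%) were in the body of their own gene outside promoters, 31 (33.3%) lay between protein-coding genes, 2 (2.15%) lay in another gene and 4 were the promoter peaks. The same shares over all peaks are not given here, so these counts describe the member peaks and do not set them apart. Introns of any transcript held 63.4% of the member peaks, against 45.4% of all peaks, and sequence between genes 30.1% against 40.7%. The median distance to the TSS was 26.4 kb, against 51.3 kb for all peaks, and 10 member peaks (10.8%) lay beyond 100 kb, against 33.8%. Assignment by the nearest start depends on the distance, the gene length and the neighbours of each gene, and their part in these differences was not tested. Of the 93 peaks, 30 had another peak of the same gene within 10 kb, a count that also has no share over all peaks beside it.

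The share of member peaks with a forkhead core had an interval that contained the share of the whole list. In the central 200 bp, 64 of 93 member peaks held it (68.8%, interval 58.4 to 78.0), against 72.5% of all peaks and 16.1% of equal windows 2000 bp to either side of the members. Laminin peaks held it in 21 of 26 cases (80.8%, interval 60.6 to 93.4) and integrin peaks in 43 of 67 (64.2%, interval 51.5 to 75.5), intervals that overlap. A single core was present in 46 peaks, 2 in 12 and 3 or more in 6. Of the 64 cores nearest to a centre, 47 (73.4%) lay within 20 bp of it. ATAAACA made up 36 of these 64, GTAAACA 19, ATAAATA 7 and GTAAATA 2. The strict form GTAAACA was found anywhere in the window of 24 member peaks (25.8%, interval 17.3 to 35.9), against 27.4% of all peaks and 2.15% of the members' flanks. In the upper part of the members by score 35 of 47 held a core (74.5%), and in the lower part 29 of 46 (63.0%).

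The 29 member peaks without a core were searched for the shorter letters GTAAAC and TAAACA, chosen after the sequences were seen. GTAAAC was in 4 of them (13.8%, interval 3.89 to 31.7) and TAAACA in 9 (31.0%, interval 15.3 to 50.8). All 7058 peaks without a core had shares of 13.5% and 29.6%. The Itga11 peak of 61.8 and the Itga5 promoter peak printed above were among the 4 with GTAAAC.

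Sequences of 4 other kinds were counted on both strands in the same windows. The E-box CATCTG, bound by basic helix-loop-helix factors, was in 24.7% of member peaks (interval 16.4 to 34.8) and 28.0% of all peaks, and the E-box CAGCTG in 23.7% (interval 15.5 to 33.6) and 18.7%. GGAATG, the sequence of TEAD factors, which act with YAP in the Hippo pathway, was in 23 member peaks (24.7%, interval 16.4 to 34.8), against 15.1% of all peaks and 8.06% of the members' flanks. It was found in 10 of 26 laminin peaks, at 7 of the 8 laminin genes with a peak, and in 5 of the 11 Itga8 peaks. TGACAG, the sequence of TALE homeodomain factors, was in 8 member peaks (8.60%, interval 3.79 to 16.2), against 18.0% of all peaks. The all-peak shares of GGAATG and TGACAG lay outside the members' intervals, but peaks of 1 gene share their surroundings and 6 sequences were compared with no test, so nothing particular to these genes is drawn from them. A match is a description of letters and not a bound site.

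**Figure D4:**
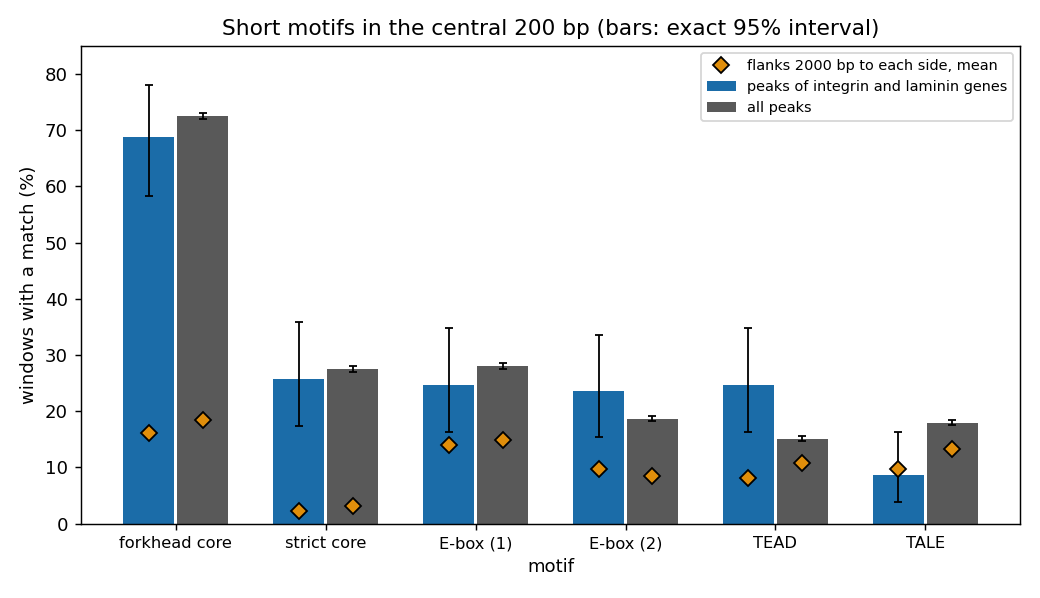
Share of windows (vertical axis, %) with a match to each of 6 short sequences (horizontal axis) in the central 200 bp of the 93 member peaks and of all 25704 peaks. E-box (1) is CATCTG, E-box (2) is CAGCTG, error bars are exact 95% intervals and diamonds are the mean of the flanks on both sides. The forkhead core was in 68.8% of member peaks and 16.1% of their flanks.

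Other genes of the adhesion system were counted in the same way. Of 13 genes of the basement membrane and other laminin-binding proteins, 10 had a peak (76.9%, against a mean of 53.6% in the same deciles by territory), led by Frem1, Frem2 and Nid1 with 6 each. Frem1 and Frem2 encode proteins that anchor the epidermis to the dermis, and Nid1 encodes nidogen, which links laminin to collagen networks. The laminin receptor genes Dag1 and Bcam and the proteoglycan gene Agrn had 0. Of 9 genes for other integrin ligands, 4 had a peak: Tnc with 22, Fn1 with 7, Vcam1 with 5 and Spp1 with 3. Genes in the same deciles by territory had a peak in a mean of 40.9% of cases, close to the 44.4% of this list. The other ligand genes had 0 each, with these territories: Icam1 (13.3 kb), Icam2 (56.5 kb), Madcam1 (11.8 kb), Cdh1 (54.8 kb) and Vtn, the vitronectin gene (2.85 kb). Those of Icam2 and Cdh1 were longer than the median of all protein-coding genes (47.0 kb). Leukocyte integrin ligands were on both sides, since the products of Vcam1, Icam1, Icam2, Madcam1 and Cdh1 all bind integrins of leukocytes. Of 18 genes for cytoplasmic partners of integrins, 12 had a peak (66.7%, against 49.8% in the same deciles), with 19 at Tns3, a tensin, and 8 each at Parva, a parvin that binds integrin-linked kinase, and Tln2, a talin. The kindlin gene Fermt1 had 7 and Fermt2 had 2, while Fermt3, the kindlin of blood cells, had 0 in a territory of 21.9 kb. Also at 0 were Tln1, Ilk, Zyx, Bcar1 (87.5 kb) and Lims1 (131 kb), so no pattern by cell type is drawn from Fermt3.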

How the data were processed

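Anti-FLAG ChIP-seq libraries (2) and 1 input library of E12.5 tongues underlie 1 deposited peak table of the authors. Per the submitters' processing notes, Bowtie2 2.4.1, SAMtools 1.7.1 and HOMER were used with mm10. The sources used here do not state the caller settings or whether ChIP libraries were pooled. The peak score and the focus ratio, a fraction from 0.499 to 0.999, are as deposited by the authors. The column that holds the fraction is headed as focus ratio or region size and was read as the first, since all peaks have the same width (212 bp).

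Positions were used as deposited, with GRCm38 sequence (RefSeq) and GENCODE M21 basic transcripts. Leaving out 3 peaks on an unplaced contig left 25704. Midpoints were assigned to the nearest TSS of a protein-coding gene, and a tie went to the lower position. Territories reach halfway to the next TSS, and deciles by territory hold equal numbers of genes. Motifs were matched in the central 200 bp and 2000 bp to each side. Members and lists were chosen with earlier results of these data known. Each member is named with its count, single peaks for members with at least 5 peaks and in promoters, sequences for the 8 highest scores and own or antisense promoters, and the 3 leading genes of each other list; further peaks and genes were chosen after their values were seen. Code was tested on simulated positions and sequences. Tools were matplotlib 3.10.9, scipy 1.17.1, pandas 2.3.3, numpy 2.4.6 and Python 3.11.15.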

Additional observations from a re-analysis of the deposited data

How the results depend on the processing

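The leukocyte integrins had 0 genes with a peak by nearest TSS and by gene body, the 1 alternative run that could have given them a peak. The others only remove or reassign peaks, so their counts of 0 say nothing about stability. Restricting peaks to the higher-scored part left 46 of the 93 assigned peaks. Restricting them to 10 kb of the TSS left 20 peaks at 13 genes, 8 of them matrix-binding integrins and 5 laminins. Counting the TSS of every annotated gene, noncoding ones included, left 51 peaks and 4 laminin genes. Within the territory range of the leukocyte list, 3 matrix-binding integrin genes and 3 laminin genes had a peak. GTAAACA alone was in 25.8% of member peaks. Other alternatives (100 kb, gene body, merging within 1 kb, central 100 bases, a wider promoter) moved counts by at most 1.5 times and the share with a core within its interval. For single genes, assignment by gene body moved the count of 13 of 36 members by more than that, the restriction to higher scores that of 16, and the 100 kb limit that of Itga1 (to 0) and Itga8 (to 7). No paired analysis was possible because the table gives no values per library. Depth was unknown, so at a gene without a peak only the absence of a called peak is stated.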
